A study of Mus musculus with 4 samples.

Results

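Heart RNA from cMyBP-C(t/t) mice, a model of dilated cardiomyopathy (DCM), was compared with heart RNA from their control mice. Each side was 1 sequencing library of 3 hearts combined; the mice were 12 weeks old and labelled FvB/N, and the libraries are called tt and control here. The labels give the controls no further genotype. The members of the comparison were the 2247 genes, of 24847 in the files, that held 10 or more counts in either library. A second pair in the series, hearts transgenic for a 25-bp variant of MYBPC3 (dC10mut) and nontransgenic hearts (NTG), also 12 weeks old and each 3 hearts combined but labelled C57BL/6, is used only to show where control and tt lie among all 4 libraries.

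Cardiac myosin binding protein C (cMyBP-C, encoded by Mybpc3) sits on the thick filament of the sarcomere, where it binds myosin and titin and restrains the entry of myosin heads into contraction. In the t/t line a targeted Mybpc3 allele codes for a truncated protein, and homozygous mice develop enlarged, weakly contracting ventricles. In failing and overloaded ventricles of rodents, natriuretic peptide genes and Ankrd1 are widely used as markers of stress, and fuel handling, ion transport and the extracellular matrix are commonly examined.

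Counts were small: 176633 in control and 186420 in tt, so that 1 count equals 5.66 CPM (counts scaled to the library total) in control and 5.36 CPM in tt, and a count of 0 allows up to 3 counts, or 17 and 16.1 CPM. A gene was called higher or lower in tt when the ratio of its counts, each scaled by the library total, was at least 2-fold and the exact 95% interval of the ratio (conditional binomial, Clopper-Pearson) did not contain 1. By this rule 183 genes (8.14%) were higher in tt and 110 (4.9%) lower, and the median ratio over the 2247 genes was 1, with 1127 genes above 1 and 1120 below. With 1 pool per genotype there is no spread between replicates, so no p-value is given; intervals cover counting error only, and a difference between these libraries cannot be told apart from a difference between any 2 pools. At the edge of the minimum, 178 genes held exactly 10 counts in their higher library, 100 of them in tt, and 185 genes left out held exactly 9, 97 of them in tt.

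**Figure D1:**
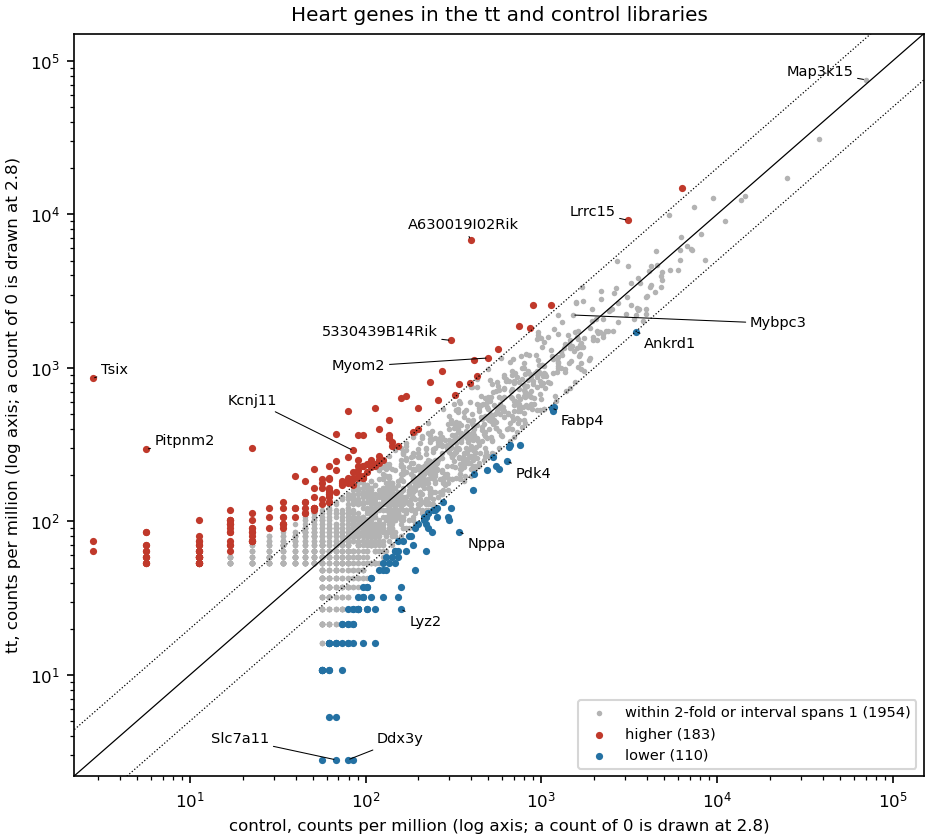
CPM of the 2247 measured genes in control (horizontal, log axis) and tt (vertical, log axis), 1 point per gene, with the line of equality and dotted lines at 2-fold. The 183 genes called higher in tt lie above the upper dotted line and the 110 called lower below the lower one; Mybpc3 lies within 2-fold.

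Several properties of the libraries bear on every ratio below. First, Tsix held 0 counts in control and 159 in tt, and Xist, the X-inactivation RNA on its other strand, 0 and 14, while the Y-linked gene Ddx3y held 14 in control and 0 in tt (at least 50.2-fold and 4.42-fold higher and at least 4.93-fold lower in tt, against a floor of 3 counts per library). In the other pair Tsix held 0 in NTG and 147 in dC10mut. The labels give no sex, so a difference in sex between the pools cannot be told apart from genotype. Second, 7900 genes have more than 1 transcript in the files, and 84.5% of them hold no count in either library, among them the cardiomyocyte genes Tnnt2 and Myl3 and the stress markers Nppb and Acta1; Myh6, the main myosin of the mouse ventricle, held 0 and 1. Besides, 5947 of the 24471 genes placed on the annotation overlap an exon of a gene on the opposite strand with one of their own exons (an opposite exon), and these held 70.3% of the counts in control and 68.6% in tt, and 39 of the 50 most abundant genes were of this kind. How the counting treated strand is not stated, so reads of such a gene and of its partner cannot be told apart, and the partner is named beside called genes. Of the 1146 measured genes with an opposite exon, 99 (8.64%) were higher and 57 (4.97%) lower; of the 1012 with a single transcript and no opposite exon, 64 (6.32%) were higher and 47 (4.64%) lower.

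Longer genes had higher ratios. Exon length is here the merged length of all annotated exons of a gene, which can exceed the length of the transcript counted. Among genes with a single transcript, no opposite exon and a count in both libraries, the median tt-to-control ratio was 0.693 for 43 genes under 1 kb of exon, 0.848 for 134 genes of 1 to 2 kb, 0.976 for 341 genes of 2 to 4 kb and 1.17 for 489 genes over 4 kb (Spearman rho 0.29 across 1007 genes that share the same 2 libraries, given as a description). Ratios relative to the median of the length class are given beside many of the lists and genes whose median or call they change, not beside all. The part of length in any one result was not tested.

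**Figure D2:**
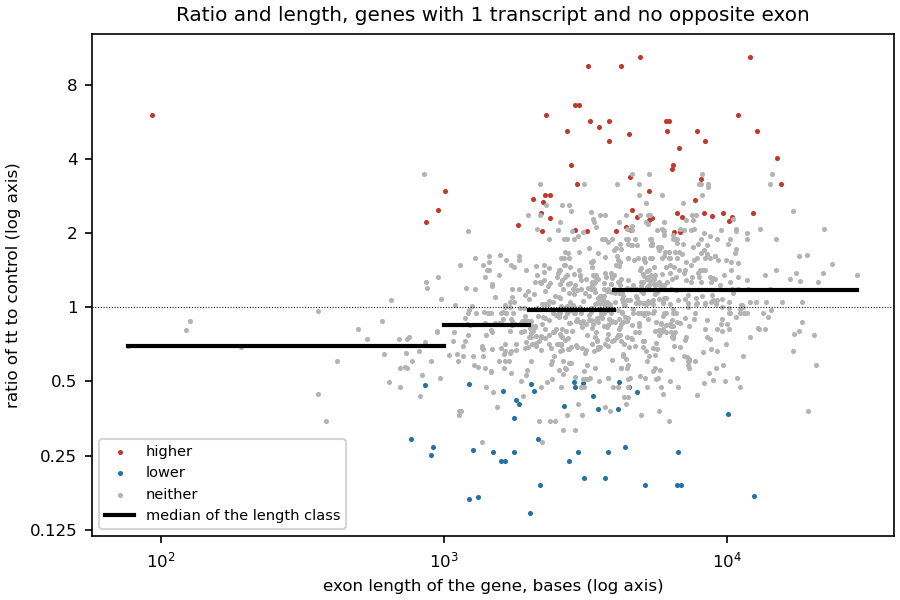
Ratio of tt to control (vertical, log axis) against exon length in bases (horizontal, log axis) for 1007 genes with a single transcript and no opposite exon, coloured by call, with thick lines at the median of each length class. The medians run from 0.693 under 1 kb to 1.17 over 4 kb.

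The tissue label was checked against marker genes. Of the 10 cardiomyocyte markers 5 were measured, at ratios between 0.803 and 1.49: cardiac actin Actc1 held 1083 counts in control and 1091 in tt, the ventricular light chain Myl2 2556 and 2453, and cardiac troponin I, Tnni3, 949 and 804. The atrial markers Myl4, Myl7, Sln and Mybphl, the adipocyte list, the haemoglobin genes and the fast skeletal myosins Myh1, Myh2 and Myh4 were at 0 in both libraries, and lymphocyte markers summed to 1 count in control and 0 in tt. These zeros do not show that a cell type was absent: 66.9% of all genes held no count in either library, and Tnnt2, Myl3 and Gapdh, which are abundant in heart muscle, were among them. In bulk hearts, fewer cells of a type and less RNA per cell cannot be told apart.

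Mybpc3, the gene behind the model (chromosome 2, 91118144 to 91136516 on GRCm38, with 1 transcript in the files and no opposite exon), was counted in every library. It held 266 counts in control, 412 in tt, 344 in NTG and 368 in dC10mut, and 4 counts given without labels below follow this order. The tt-to-control ratio was 1.47 (1.25 to 1.72), above 1 and short of 2-fold, and control was the lowest of the 4 libraries. Reads are counted over the whole transcript and not per allele, so this level does not check the genotype labels. Of the 6 measured genes within 5 Mb of Mybpc3, 1 was higher and 1 lower, with a median ratio of 1.19. Within 20 Mb, 2 of 29 were higher and 1 lower, with a median of 1.02. Of the 180 on chromosome 2, 14 were higher and 8 lower, with a median of 1. Over all measured genes 8.14% were higher and 4.9% lower.

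Most measured thick-filament and M-band genes had ratios above 1, as Mybpc3 did. Of 23 in the files 11 were measured, 8 had a ratio above 1, and the list median was 1.47 against 1 over all measured genes (1.26 relative to length class). The single member called higher was Myom2, a myomesin that cross-links thick filaments at the M-band, with 88 counts in control, 217 in tt, 165 in NTG and 134 in dC10mut (ratio 2.34, 1.82 to 3.03); tt was the highest and control the lowest of the 4. Ttn, which encodes titin, the elastic filament on which the thick filament is built, held 7 in control and 11 in tt. Myh7, the slow beta myosin that marks stress in rodent ventricles, held 20 in each, while Mhrt, a noncoding RNA transcribed opposite Myh7, held 698 in control and 447 in tt; their sum had a ratio of 0.616 (0.547 to 0.693).

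Thin-filament and Z-disc genes lay on both sides of 1. Of 34 in the files 16 were measured, 6 above 1 and 10 below. The median was 0.9 (0.949 with DESeq2 size factors and 1.02 relative to length class). The DESeq2 size factors were 1 for both libraries, so values given with them here and below are ratios of unscaled counts. Tnnc1, cardiac troponin C, held 613 counts in control, 413 in tt, 357 in NTG and 568 in dC10mut (ratio 0.638, 0.562 to 0.724), and Des, the intermediate filament desmin, 292 in control and 231 in tt (0.75, 0.628 to 0.894); neither reached 2-fold. Nexn, nexilin, which anchors actin at the Z-disc and junctional membranes, was higher in tt at 25 counts against 6 in control, with 7 in NTG and 9 in dC10mut (ratio 3.95, 1.58 to 11.8). Cmya5, a large Z-disc and perinuclear scaffold also called myospryn, held 76 in control and 140 in tt (1.75, 1.31 to 2.34).

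**Figure D3:**
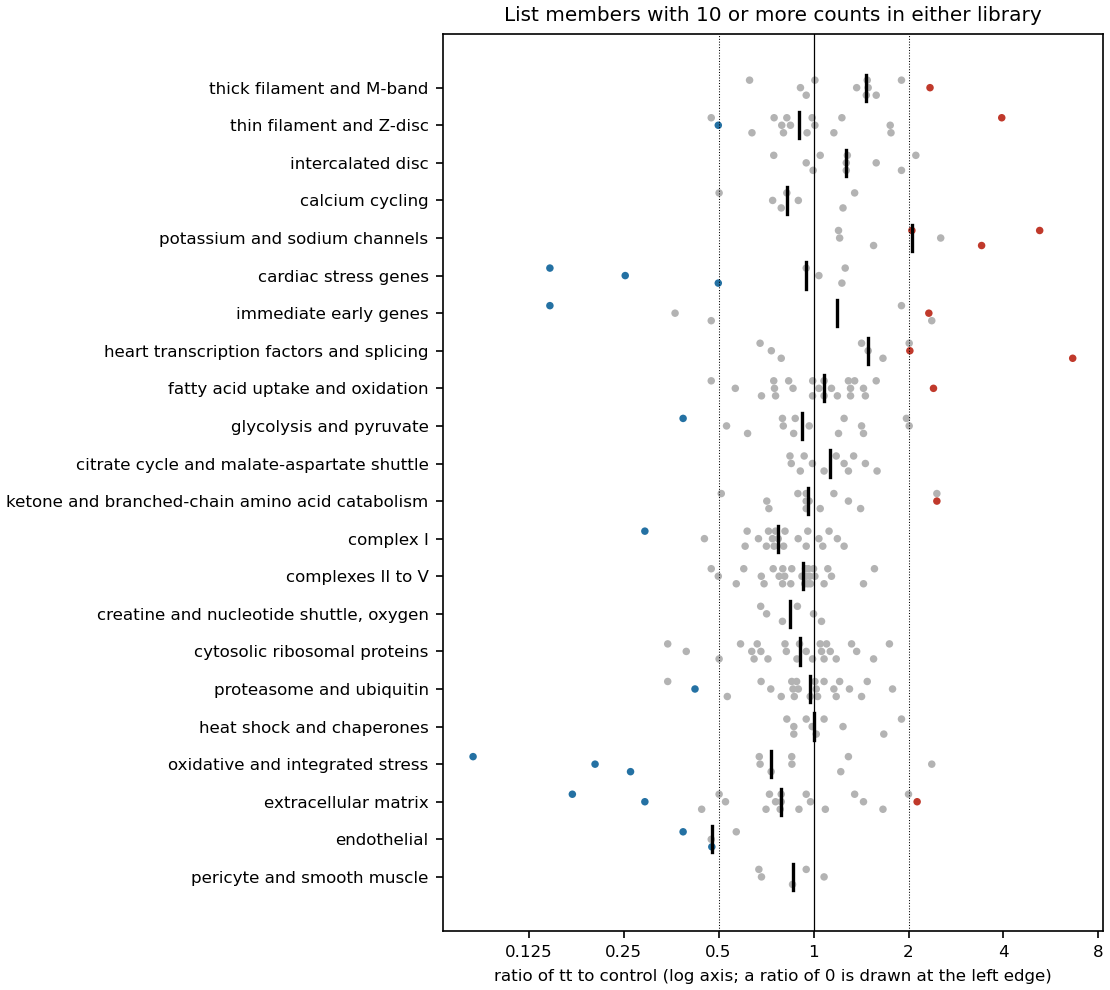
Ratio of tt to control (horizontal, log axis) for every list member with 10 or more counts in either library, 1 point per gene in rows by list, with called genes coloured red (higher) or blue (lower) and a black bar at the list median. The channel list has all 7 members above 1, and the endothelial list all 4 below 1.

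All 3 cardiac stress genes that were called were lower in tt, and their promoters are printed to compare the letters upstream of their starts. Nppa encodes atrial natriuretic peptide, Ankrd1 a muscle ankyrin repeat protein of the titin spring region and the nucleus, and Ccn1 a matricellular protein that is also an immediate early gene. The sequences are the 250 bases before each gene's RefSeq start on GRCm38.p6, 5′ to 3′ on the gene's strand, at chr4:148000472-148000721 (plus strand) for Nppa, chr19:36119845-36120094 (minus strand) for Ankrd1 and chr3:145649986-145650235 (minus strand) for Ccn1. Capitals mark CATTCC, the core bound by TEAD factors, and GATAA, the core bound by GATA factors, on either strand, so that they also appear as GGAATG and TTATC.
Nppa: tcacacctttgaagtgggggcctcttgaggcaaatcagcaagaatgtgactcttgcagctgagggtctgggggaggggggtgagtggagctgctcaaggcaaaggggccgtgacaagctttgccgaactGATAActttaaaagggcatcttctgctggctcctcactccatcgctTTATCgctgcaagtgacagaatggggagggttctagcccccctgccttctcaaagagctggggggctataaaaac
Ankrd1: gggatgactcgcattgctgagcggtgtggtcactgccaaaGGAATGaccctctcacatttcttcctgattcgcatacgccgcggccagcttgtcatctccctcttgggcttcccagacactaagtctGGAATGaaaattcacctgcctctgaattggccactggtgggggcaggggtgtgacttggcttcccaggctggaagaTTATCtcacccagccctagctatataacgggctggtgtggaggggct
Ccn1: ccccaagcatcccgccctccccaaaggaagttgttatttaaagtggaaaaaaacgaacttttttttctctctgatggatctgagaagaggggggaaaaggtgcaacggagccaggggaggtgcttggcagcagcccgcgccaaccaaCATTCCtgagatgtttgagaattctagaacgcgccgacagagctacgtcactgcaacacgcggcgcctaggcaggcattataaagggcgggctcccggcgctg
The Nppa window holds 2 GATAA matches and 0 of CATTCC, the Ankrd1 window 1 and 2, and the Ccn1 window 0 and 1, so neither motif is in all 3 windows. Of 27025 mouse promoter windows of this length, 12.6% hold CATTCC and 23% hold GATAA, and a match in the letters is a description, not a bound site.

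Nppa held 60 counts in control, 16 in tt, 9 in NTG and 22 in dC10mut. Its ratio of 0.253 (0.136 to 0.444) therefore set tt below a control library that was itself the highest of the 4; its opposite-strand gene is Gm13054. Nppa is also the one atrial marker with counts, and the other 7 of that list held no count in the pair; how much atrium each pool held was not tested. Ankrd1 was likewise highest in control, with 609, 321, 227 and 196 counts, so that tt lay above both C57BL/6 libraries and below its own control (ratio 0.499, 0.435 to 0.573). The Ankrd1 call lies at the 2-fold limit and ended with DESeq2 size factors, that is on unscaled counts (0.527), and relative to length class (0.512). Ccn1 held 13, 2, 5 and 2 counts (ratio 0.146, 0.016 to 0.644).

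Of 21 stress genes 7 were measured, the 3 above were called lower and 0 higher, against 4.9% of all measured genes lower and 8.14% higher. The list median was 0.948 (1 with DESeq2 size factors), and relative to length class it was 0.811 with 2 lower calls. The other 4 had intervals that contain 1: Ccn2, a matricellular relative of Ccn1, held 24 counts in control and 32 in tt, Nmrk2, a nicotinamide riboside kinase of stressed muscle, 51 and 56, and the actin-binding Xirp1 30 and 39. Among 24 immediate early genes 6 were measured, 3 above 1 and 3 below, with a median of 1.18 (1.21 relative to length class). Klf9, a glucocorticoid-responsive repressor, was higher in tt with 18, 44, 38 and 58 counts (ratio 2.32, 1.31 to 4.26; 1.98 and no longer called relative to length class). Dusp1, the phosphatase that inactivates MAP kinases, held 30, 60, 29 and 42 (1.9, 1.2 to 3.04; 2 and then called with DESeq2 size factors), while Ier3 held 13 in control and 5 in tt and Klf4 10 and 5. Klf6 held 4 in control and 10 in tt, with an interval that contains 1. Below the minimum, most members with unequal counts held fewer in tt, all with intervals that contain 1. Fos, Egr1 and Nr4a1 held 3, 4 and 4 counts in control and 0 each in tt. Zfp36 held 2 in control and 0 in tt, Jun 6 and 4, and Junb 5 and 3. Ier2 held 4 and 2, Btg2 4 and 3, and Klf2 7 and 4. More counts in tt were held by Fosl2, at 2 and 5, Atf3, at 1 and 3, and Nr4a3, at 0 and 1.

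**Figure D4:**
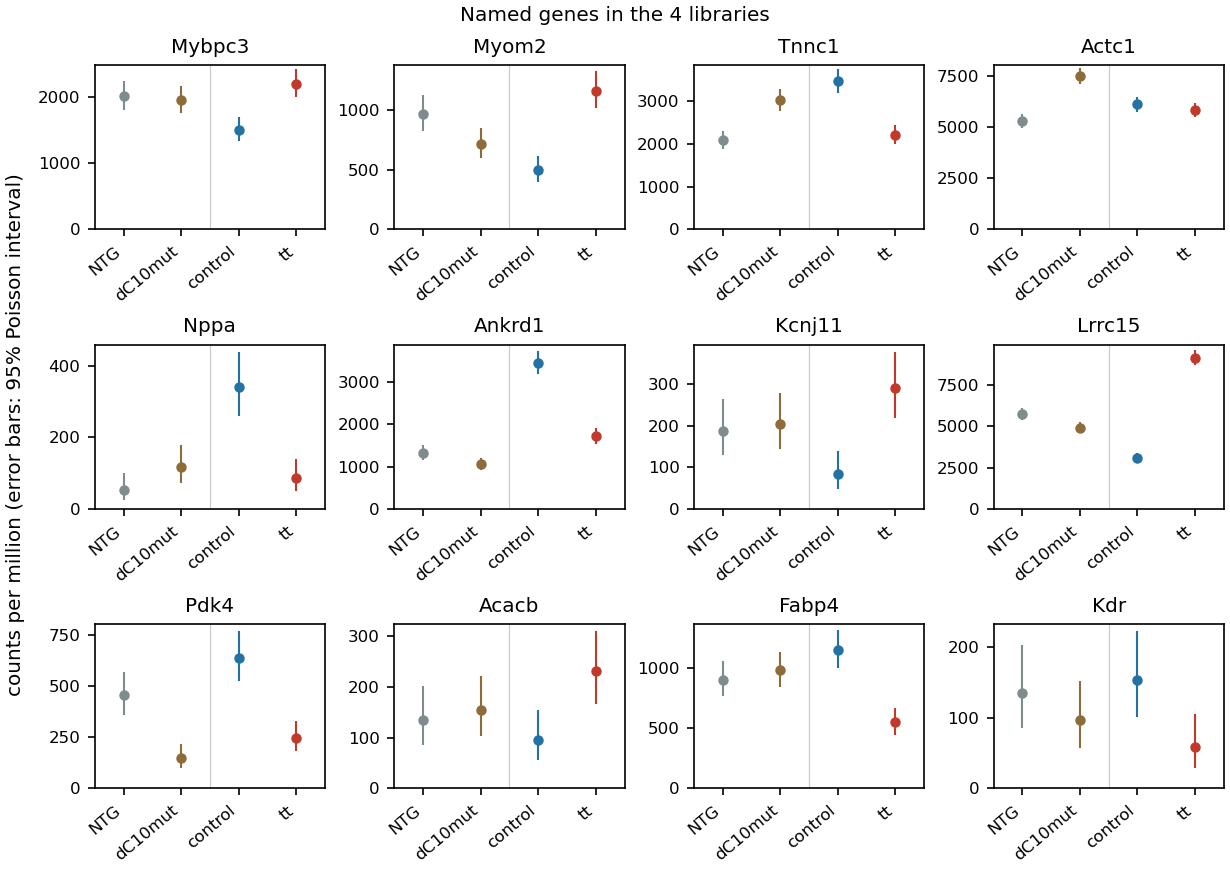
CPM (vertical, from 0) of 12 genes in the NTG, dC10mut, control and tt libraries, 1 point per library with its 95% Poisson counting interval. Nppa and Ankrd1 are highest in control, Myom2, Kcnj11, Lrrc15 and Acacb are highest in tt, and Pdk4 is high in control and NTG.

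All 7 measured members of 26 ion channel and pump genes had ratios above 1, with a median of 2.05 (1.75 relative to length class), and 3 were called higher, against 8.14% of all measured genes. Relative to length class 1 of them, Kcnj11, was called. Kcnj11 encodes Kir6.2, the pore of the ATP-sensitive potassium channel, which opens when cell ATP falls and shortens the action potential. It held 15 counts in control, 54 in tt, 32 in NTG and 38 in dC10mut, lowest in control and highest in tt (ratio 3.41, 1.9 to 6.51). Atp1b1, a beta subunit of the sodium pump, held 62 in control and 79 in tt and was not called. Kcnq1, the pore of the slow delayed rectifier, held 2, 11, 10 and 5 (5.21, 1.14 to 48.4); joined with Kcnq1ot1, the imprinted antisense RNA at that locus, the ratio was 1.95 and no call, and its interval relative to length class contained 1.

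Channel loci were also read on the other strand. Abcc9, which encodes the SUR2 subunit that pairs with Kir6.2 (chromosome 6, 142587862 to 142702315), has 5 transcripts in the files and held 0 counts in every library. The noncoding 5330439B14Rik, whose exons lie within that span on the opposite strand, held 54 counts in control, 282 in tt, 76 in NTG and 123 in dC10mut (ratio 4.95, 3.69 to 6.75). Kcnk3, the background potassium channel TASK-1, held 19 in control and 31 in tt, and Gm9899 opposite it 73 and 209 (2.71, 2.07 to 3.59). As a sum the Kcnk3 locus was thus higher in tt at 2.47 (1.94 to 3.18), whichever strand the reads came from. At the Abcc9 locus the sum equals 5330439B14Rik alone, at 4.95, because Abcc9 held 0 counts. That sum therefore cannot show the level of Abcc9. Kcnj8, the other pore subunit that pairs with SUR2, held no count in the pair and was not assessed.

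Of 17 intercalated disc genes 10 were measured, 7 of them above 1, with a median of 1.27 (1.09 relative to length class) and no call by library totals. Cdh2, N-cadherin, the adhesion molecule of the fascia adherens, held 28 counts in control, 56 in tt, 40 in NTG and 33 in dC10mut (1.9, 1.18 to 3.1; 2 and then called with DESeq2 size factors), and Gja1, connexin 43 of gap junctions, 80 in control and 107 in tt. Dsg2, the desmosomal cadherin, held 9 and 20, and Gm16090 on its other strand 48 and 179 (3.53, 2.56 to 4.97), so that the Dsg2 locus as a sum had a ratio of 3.31 (2.45 to 4.52). Calcium cycling genes gave 0 calls among 7 measured of 25: Ryr2, the release channel of the sarcoplasmic reticulum, held 141 in control and 201 in tt (1.35, 1.08 to 1.69) and Hrc, a calcium-binding protein inside it, 472 and 617. Atp2a2, the SERCA pump, and its inhibitor Pln held at most 2 counts in either library and were not assessed. The shares over all measured genes were 8.14% higher and 4.9% lower.

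By library totals the fatty acid, glycolysis, citrate cycle and ketone lists gave at most 1 call each, among 12 to 23 measured members. Of all measured genes 8.14% were called higher and 4.9% lower. Pdk4, the kinase that shuts off pyruvate dehydrogenase when fat is burned, was lower in tt (ratio 0.386, 0.268 to 0.548). It held 113 counts in control, 46 in tt, 78 in NTG and 28 in dC10mut. Both pools that carry a Mybpc3 change were thus below their controls. These are also the pools with Tsix counts (159 in tt, 147 in dC10mut), so the Mybpc3 change and the Tsix difference cannot be told apart. Acacb, the mitochondrial-membrane acetyl-CoA carboxylase whose product malonyl-CoA restrains fatty acid entry, was higher at 43 counts in tt against 17 in control, with 23 and 29 in NTG and dC10mut (2.4, 1.34 to 4.48). Pdha1, the catalytic subunit that Pdk4 phosphorylates, held 150 in control and 228 in tt (1.44, 1.17 to 1.78), though Map3k15, on its other strand and the gene with the most counts in the files, held 12362 and 14012. Hk2, the insulin-responsive hexokinase, held 24 and 50 (1.97, 1.19 to 3.36; 2.08 and then called with DESeq2 size factors) and Pgam2, the muscle phosphoglycerate mutase, 93 and 52 (0.53, 0.37 to 0.752), both short of 2-fold by library totals.

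Fatty acid uptake and oxidation had 23 measured members of 40, with 13 above 1 and Acacb as the single call. The median was 1.08 (1.02 relative to length class). Lpl, lipoprotein lipase, held 1107 counts in control and 1331 in tt (1.14, 1.05 to 1.23), and Hadha, of the trifunctional protein, 179 and 255 (1.35, 1.11 to 1.64), while Acot13, a mitochondrial thioesterase, held 166 and 99 (0.565, 0.436 to 0.729) and the uncoupling protein Ucp3 20 and 10. In the citrate cycle list 7 of 12 measured members were above 1, with a median of 1.13 (1.01 relative to length class) and no call. Idh2 held 175 and 293 (1.59, 1.31 to 1.92). Glycolysis and pyruvate genes had 14 measured of 34 with a median of 0.922, and Pdk4 was their single call by library totals.

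Ketone and branched-chain amino acid genes had 14 measured of 24, a median of 0.958 (1.01 with DESeq2 size factors) and Mmut as the single call. Mmut, the mutase that feeds propionate carbon into the citrate cycle, held 15 counts in control, 39 in tt, 14 in NTG and 21 in dC10mut (2.46, 1.33 to 4.81; opposite-strand gene Cenpq). Oxct1, the enzyme that activates ketone bodies, held 184, 274, 130 and 222, and BC037032 opposite it 131, 346, 202 and 453, called higher by itself (2.5, 2.04 to 3.08) but not as a sum with Oxct1 (1.86, 1.63 to 2.14). Aldh6a1, of valine breakdown, held 0 in control and 1 in tt, and Bbof1 opposite it 152 and 337, so that the locus as a sum was 2.11 (1.73 to 2.57).

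Respiratory chain subunits encoded in the nucleus had 49 measured members of 80, of which 12 were above 1, with a median ratio of 0.847. These are short genes, with a median exon length of 1465 bases against 3958 over all measured genes, and relative to length class 22 of the 49 were above 1 and the median was 0.977. Complex I alone had 21 measured members, 5 above 1 and a median of 0.773, or 8 and 0.912 relative to length class. Its single call was Ndufb3, a membrane-arm subunit, with 39 counts in control, 12 in tt, 25 in NTG and 31 in dC10mut (0.292, 0.139 to 0.568); tt was the lowest of the 4 libraries. Complexes II to V gave 0 calls among 28, with a median of 0.929 and 1.01 relative to length class. The shares over all measured genes were 8.14% higher and 4.9% lower. Single subunits lay on both sides of 1: Sdha, the flavoprotein of complex II, held 136 in control and 224 in tt (1.56, 1.26 to 1.95) and Atp5a1 389 and 593 (1.44, 1.27 to 1.65; opposite-strand gene Haus1), against 131 and 103 for Cox7a1 and 144 and 106 for Uqcrfs1. Slc25a4, the adenine nucleotide carrier, held 781, 585, 444 and 726 (0.71, 0.636 to 0.791), and Ckmt2, mitochondrial creatine kinase, 453 in control and 325 in tt (0.68, 0.588 to 0.786).

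Of 14 endothelial markers 4 were measured, all below 1, and 2 were called lower in tt, against 4.9% of all measured genes. The list had a median of 0.475 (0.501 with DESeq2 size factors, 0.407 relative to length class). By merged exons Fabp4 is 4489 bases long, its whole extent (10204088 to 10208576 on chromosome 3). Its length class may thus not reflect the transcript counted. The summed counts of the list were 280 in control, 146 in tt, 236 in NTG and 245 in dC10mut. Fabp4, a lipid chaperone of capillary endothelium and fat cells, held 203, 102, 154 and 184 (0.476, 0.372 to 0.607; 0.502 and not called with DESeq2 size factors), and tt was the lowest of the 4. Kdr, the main receptor for vascular endothelial growth factor, held 27, 11, 23 and 18 (0.386, 0.173 to 0.804), Cdh5, the cadherin of endothelial junctions, 25 in control and 15 in tt (0.569, 0.279 to 1.12; called lower, at 0.487, relative to length class), and Flt1, a decoy receptor for the same factor, 16 and 8. Defining markers with more than 1 transcript, Pecam1, Tek, Emcn and Eng, held no count in the pair. The 7 adipocyte markers were also at 0, but 4 of them have more than 1 transcript, so these zeros do not bear on whether fat cells contributed Fabp4. Pericyte and smooth muscle markers summed to 212 in control and 183 in tt, with 0 calls among 5 measured.

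Macrophage and fibroblast markers rested on few counts. Lyz2, lysozyme of macrophages and neutrophils, held 28 in control, 5 in tt, 6 in NTG and 28 in dC10mut (0.169, 0.051 to 0.444); it was the single measured macrophage marker, and the list summed to 51, 19, 19 and 55. The fibroblast list summed to 91, 60, 67 and 80 with all 4 measured members below 1, and the activated fibroblast list to 10 in control and 7 in tt, with Postn, periostin, at 0. Of 43 extracellular matrix genes 20 were measured, 6 above 1 and 14 below, with a median of 0.79. By library totals 2 were called lower and 1 higher, against 4.9% and 8.14% of all measured genes. Relative to length class the median was 0.723, with 4 lower calls (Col1a2, Col3a1, Col8a1 and Nid1) and 0 higher. Col1a2, a fibrillar collagen chain, held 11, 2, 7 and 2 counts (0.172, 0.0186 to 0.789), and Nid1, the nidogen that links laminin to collagen IV, 13, 4, 11 and 5 (0.292, 0.0692 to 0.944; opposite-strand gene Gm48682). Col3a1, the other main fibrillar chain here, held 34 in control and 18 in tt (0.502, 0.267 to 0.913; called lower, at 0.43, relative to length class). The exception was Col4a2, a basement membrane collagen chain, at 16 in control and 36 in tt (2.13, 1.15 to 4.11; opposite-strand genes Gm15419 and Col4a1; 1.83 and not called relative to length class). No fibrillar collagen was called higher in tt.

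Regulators and splicing factors of heart muscle had 9 measured members of 27, with a median of 1.49 and 2 calls, both higher, against 8.14% of all measured genes. Relative to length class the median was 1.27 and 1 gene, Srf, was called. Rbm20, the splicing repressor of titin that is itself a cardiomyopathy gene, held 22 counts in control, 47 in tt, 18 in NTG and 19 in dC10mut, highest in tt (2.02, 1.2 to 3.53; 1.73 and not called relative to length class). Srf, serum response factor, which drives sarcomeric and immediate early promoters, held 2, 14, 4 and 10 (6.63, 1.52 to 60.1). Tbx20 held 8 in control and 17 in tt and the splicing factor Rbm24 16 and 28, with intervals that contain 1. Thra, the thyroid hormone receptor that shares its 3′ end with the clock gene Nr1d1, held 536 and 416.

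Of 31 genes of oxidative and integrated stress 11 were measured, 8 of them below 1, with a median of 0.734 and 3 lower calls, against 4.9% of all measured genes. Gsta4, a transferase that clears the lipid peroxidation product 4-hydroxynonenal, held 18 counts in control, 5 in tt, 8 in NTG and 20 in dC10mut (0.263, 0.0764 to 0.736). Gars, glycyl-tRNA synthetase, held 14, 3, 17 and 15 (0.203, 0.0374 to 0.727), and Slc7a11, the cystine importer, 12, 0, 18 and 1, at least 4.22-fold lower in tt against the floor. Atf4, Ddit3 and Chac1 held no count in the pair. Of the proteasome and ubiquitin genes 23 were measured, and the muscle ubiquitin ligases Trim63, at 44 in control and 47 in tt, and Fbxo32, at 22 and 27, were not called. Chaperones gave 0 calls among 10, though Hsp90ab1 held 278 and 490 (1.67, 1.44 to 1.94). Cytosolic ribosomal proteins gave 0 among 25 with a median of 0.903. Of all measured genes 8.14% were higher and 4.9% lower.

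Several of the largest ratios belonged to genes outside the lists. A630019I02Rik, a noncoding RNA inside the Cmya5 gene on its other strand (chromosome 13, 93094833 to 93098968), held 70 counts in control, 1273 in tt, 244 in NTG and 654 in dC10mut (17.2, 13.5 to 22.2), and its sum with Cmya5 had a ratio of 9.17 (7.73 to 10.9). With Gm4814, which also lies opposite Cmya5, the sum of the 3 genes had a ratio of 4.05. Lrrc15, a leucine-rich repeat protein known from matrix-producing fibroblasts, held 547, 1705, 980 and 922 (2.95, 2.68 to 3.26), and its neighbour Cpn2 on the same strand of chromosome 16 held 24, 85, 56 and 50 (3.36, 2.11 to 5.52); control was lowest and tt highest for both. Pitpnm2, a phosphatidylinositol transfer protein, held 1, 55, 42 and 33, so that control alone stood apart and the ratio of 52.1 (8.97 to 2.1e+03) rests on 1 count. Sgcb and Sgcd, subunits of the sarcoglycan complex of the muscle membrane, held 21 and 13 in control and 45 and 33 in tt (2.03, 1.18 to 3.59, and 2.41, 1.23 to 4.98). On the lower side were Lgals1, galectin-1, at 34 and 9 (0.251, 0.106 to 0.534), and B2m, the light chain of class I histocompatibility molecules, at 49 and 25 (0.483, 0.286 to 0.798). Lrrc15, Cpn2, Sgcb, Sgcd, Lgals1 and B2m were chosen after their values were seen.

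Across the loci with counted genes on both strands, 792 reached 10 counts as a sum, and 64 (8.08%) of the sums were higher in tt and 32 (4.04%) lower, close to the shares over single genes. Where a list gene faced a counted gene outside the lists, the partner held more counts at 40 of 93 loci and at least 10 times as many at 26. With a single transcript on each strand the partner held more at 19 of 42 loci, and with more than 1 transcript of the list gene and 1 of the partner at 16 of 19. An example without a call is Gm15441, opposite Txnip, an inhibitor of glucose uptake that held 0, at 1685 counts in control and 2375 in tt (1.34, 1.25 to 1.42).

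**Figure D5:**
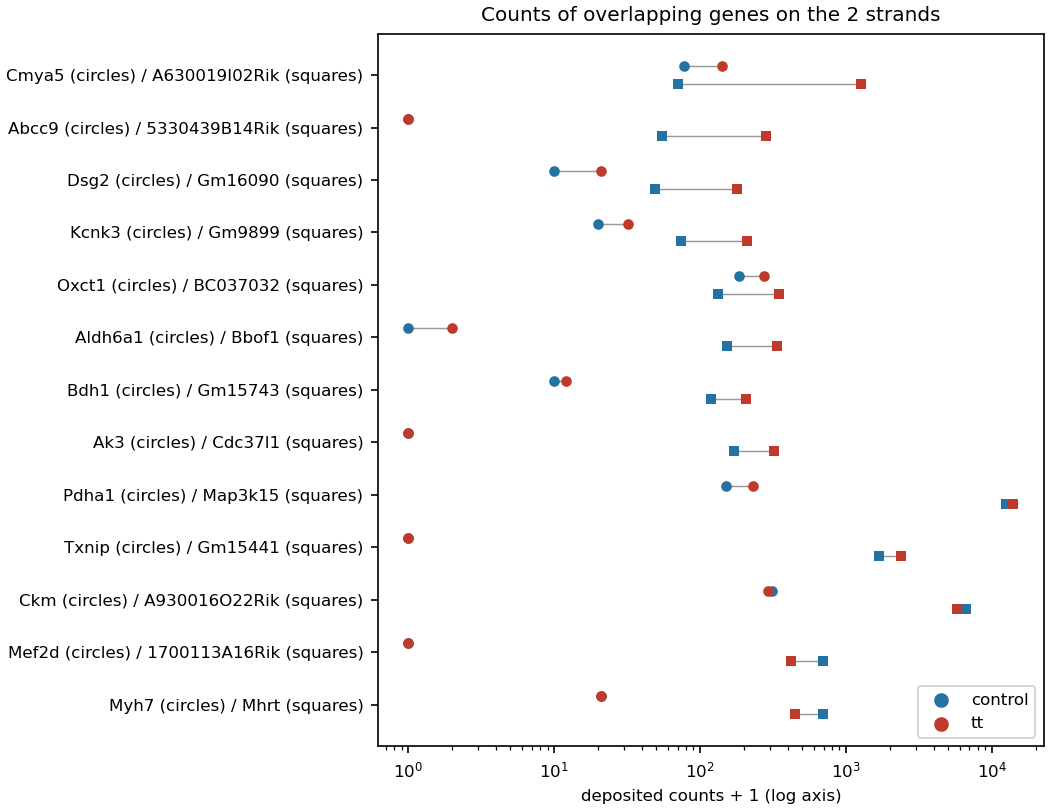
Deposited counts plus 1 (horizontal, log axis) of 13 list genes (circles) and of the gene on the other strand (squares) in control (blue) and tt (red), joined by a line; equal values overlap so that only the tt point shows. At the Abcc9, Txnip and Aldh6a1 loci nearly all counts are on the partner, and the A630019I02Rik pair of points is the most widely spaced.

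The called genes were also placed among all 4 libraries. They were picked because control and tt differ, so an extreme place for either or both was favoured in advance. Uncalled genes were not placed for comparison. Of the 183 higher genes, tt was the highest and control the lowest of the 4 for 124, tt alone was at the extreme for 38, control alone for 19, and neither for 2. Of the 110 lower genes, tt was the lowest and control the highest for 56, control alone was at the extreme for 36, tt alone for 17, and neither for 1. Lower genes thus had control alone at the extreme in 32.7% of cases and higher genes in 10.4%, as with Nppa and Ankrd1 against Rbm20. These shares rest on 4 libraries that differ in strain label and in Tsix and Ddx3y counts. The calls themselves use control and tt and not NTG or dC10mut. The shares thus describe these libraries, cannot show which of the pair stood apart, and were not tested.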

How the data were processed

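Poly(A) RNA of mouse hearts was sequenced with a stranded mRNA kit, per the labels' protocols, in 4 libraries of 3 pooled hearts each. STAR, HTSeq and the mouse build mm10 are named in the submitters' processing notes; their versions, and how strand and shared reads were handled, are not given in the sources used here. Per transcript, the authors deposited raw read counts with no normalization. Of 41449 transcripts, 41252 matched a symbol in the RefSeq table (GRCm38.p6) and 197 did not (1.33% of control and 2.07% of tt counts); the former were summed to 24847 genes. Positions and opposite-strand exons came from GENCODE M21 (GRCm38), promoters from RefSeq.

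Counts were divided by the library total. A gene was measured at 10 or more counts in either library and called at 2-fold with a 95% Clopper-Pearson conditional interval apart from 1; a fold against 0 is a bound against 3 counts. The rule was tried on simulated counts that vary by counting error only. Spread between pools, changes near 2-fold and changed genes at low counts were not simulated, so these were not tested. With 1 library per group no test was made. Alternative scalings used edgeR 4.0.16 and DESeq2 1.42.0 (in R 4.3.3, factors only, no test). The DESeq2 size factors, taken over all genes, came out as 1 for both libraries and so left the counts unscaled. The rest used Python 3.11.15 with scipy 1.17.1.

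The members, lists and rules were chosen with earlier results of these data known. Genes named by rule were Mybpc3, the 15 largest ratios in each direction among called genes with 50 or more counts, called list members, the 3 members of each list with the most counts, their opposite-strand partners and the 10 most abundant genes. A few genes that these rules name are not reported here. Other list members in the text were chosen after their values were seen. The ratio relative to length class, the restriction to genes with 1 transcript and no opposite exon, and the DESeq2 and reduced-total scalings of lists and single genes were added after the data were seen.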

Additional observations from a re-analysis of the deposited data

How the results depend on the processing

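Against 183 higher and 110 lower genes, a minimum of 20 counts left 117 and 60, genes with no opposite exon gave 77 and 51, a 99% interval gave 115 and 52, and genes with 1 transcript and no opposite exon gave 64 and 47; each tests fewer genes or sets a wider interval. The other settings stayed within 1.5 times these counts: 183 and 113 with TMM factors, 217 and 84 with DESeq2 size factors, 184 and 110 without the 10 most abundant genes or with the top transcript only, 226 and 132 with no minimum, 166 and 99 with genes joined across strands, and 162 and 132 relative to length class. Of the 293 called genes, 267 kept their call with DESeq2 size factors, which leave the counts unscaled, and 167 with the 99% interval. Relative to length class, 284 of them could be placed, of which 224 kept their call and 60 lost it, and 70 other genes were newly called. None reversed under these 3 settings. Among named genes not discussed above, summing with the other strand ended the calls of 1700086O06Rik (1.92), D830050J10Rik (1.42), Leng1 (0.552), Nt5dc2 (0.534) and Cox20 (0.88). No paired analysis was possible because each group has 1 library, and for the same reason no library could be left out. Low counts limit most lists: a gene at the minimum of 10 counts in one library and 5 in the other has an interval that contains 1.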
